A study of Mus musculus with 12 samples.

Results

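Cytochrome P450 genes were taken as all genes whose probe sets carried a single annotated symbol made of Cyp followed by a digit, 63 of the 12393 genes measured. Each gene was read from the probe set with the highest mean over the 12 arrays. The cells were BMEL cells (bipotential mouse embryonic liver), which grow as immortal lines with hepatoblast features from CBA/J x C57Bl/6J embryos at 14 days post coitum. The lines 9A1 and 14B3, isolated independently of each other, were each kept in basal culture, as aggregates for 5 days, or in Matrigel, a gel of basement membrane proteins. Matrigel cultures were labelled 10 days, except replicate 1 of 14B3, which was labelled 5 days, and basal cultures carried no day. Each of the 6 groups of line and culture had 2 arrays that the study calls biological duplicates, so each culture had 4 arrays. The labels name no drug, inducer or genetic change in any group. How the duplicates were kept apart is not given, so every p-value reflects the scatter of these arrays, which may be technical.

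P450 enzymes are heme proteins that insert an oxygen atom into their substrate, using electrons passed on by P450 reductase and cytochrome b5 in the endoplasmic reticulum, or by ferredoxin in mitochondria. Families Cyp1 to Cyp3 act mainly on drugs, toxins and fatty acids, Cyp4 enzymes hydroxylate the end of fatty acid chains, and other families make or break down sterols, bile acids, vitamins and steroid hormones. The liver is their main site, where many Cyp2 and Cyp3 genes are low before birth and are later held up by liver transcription factors and by nuclear receptors that sense foreign compounds; the small intestine carries a set of its own.

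Values were log2 signal intensities, whose precision rests on how many arrays each culture had. Array medians lay between 267.62 and 281.12 on the linear scale. Albumin and the other 5 measured genes of a hepatocyte list were all called higher in aggregates than in basal culture. The summed log2 intensity of that list was 10.73 to 11.76 in basal arrays, 15.08 to 15.82 in aggregates and 14.83 to 15.2 in Matrigel. The sum over 6 measured enterocyte genes (absorptive cells of the gut) was 10.74 to 11.35 in basal arrays, 14.84 to 15.34 in aggregates and 14.34 to 14.76 in Matrigel. Of 5 bile duct markers 2 were higher in aggregates, Epcam by 5.00 and Cftr by 2.54, and 2 were lower, Krt7 (-2.29) and Sox9 (-0.47). Krt19, at 13.32 to 13.59 on average in each culture, was not called, and the sum over the 5 lay between 13.93 and 14.47 in all 12 arrays. In bulk RNA, fewer cells of a type and less RNA per cell cannot be told apart. As a loose guide to background, 40 genes of eye, germ cells, pituitary, muscle and other distant tissues were read. Of their single-array log2 intensities 90% were at most 8.62 (range 4.3 to 10.47). By that guide the means of 45 of the 63 P450 genes stayed at or below 8.62 in every group of line and culture, and 18 were above it in at least 1 group. The median reading over all genes and arrays was 8.42, so lying below the guide is not particular to P450 genes. The share of all genes below it was not counted. Readings near that level may be partly background.

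P450 genes were far more often higher than lower in aggregates, compared with basal culture. At an adjusted p below 0.05 (limma, Benjamini-Hochberg over all genes, used throughout), 34 of the 63 were higher in aggregates and 1, Cyp1b1, was lower, which is 55.6% of the members against 46.3% of all genes. Over all genes the calls were split evenly, 22.9% higher and 23.4% lower. Over all 63 members, called or not, aggregate arrays lay wholly above basal arrays for 33 and wholly below for 1, against 24.6% and 21.8% of all genes. Of the 34 called higher, 31 did not overlap, and Cyp51, Cyp21a1 and Cyp2d10 did. The median P450 change was 0.305 on the log2 scale, beside 0.095 over all genes and 0.14 over the 40 background guide genes. Of those 40 genes, 2 were called higher and 1 lower. Changes of at least 1 log2 unit were called for 14 members upward and 1 downward, 23.8% of the members, beside 15.6% of all genes. The other 20 called members moved by less than 1 log2 unit. Of the 35 called members, 18 stayed at or below the background guide in every group. Leaving out 1 array at a time gave 26 to 35 called members, and 25 of the 35 calls were kept in all 12 omissions.

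In Matrigel against basal culture, 14 of the 63 were called higher and 0 lower. At an unadjusted p below 0.05 in limma, 18 members differed in either direction, and the share of all genes at that threshold was not counted. These 14 are 22.2% of the members, beside 28.4% of all genes in either direction and 14.1% of all genes upward. Over all 63 members, called or not, Matrigel arrays lay wholly above basal arrays for the same 14 and wholly below for 0. Of all genes 12.6% lay wholly above and 13.6% wholly below. By at least 1 log2 unit, 10 members were higher, 15.9% of them, beside 6.03% of all genes in either direction. The median P450 change was 0.031, beside -0.04 over all genes and -0.05 over the 40 background guide genes. Aggregate and Matrigel changes share the same 4 basal arrays, so they are given side by side below and not set against each other except in the direct comparison.

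**Figure D1:**
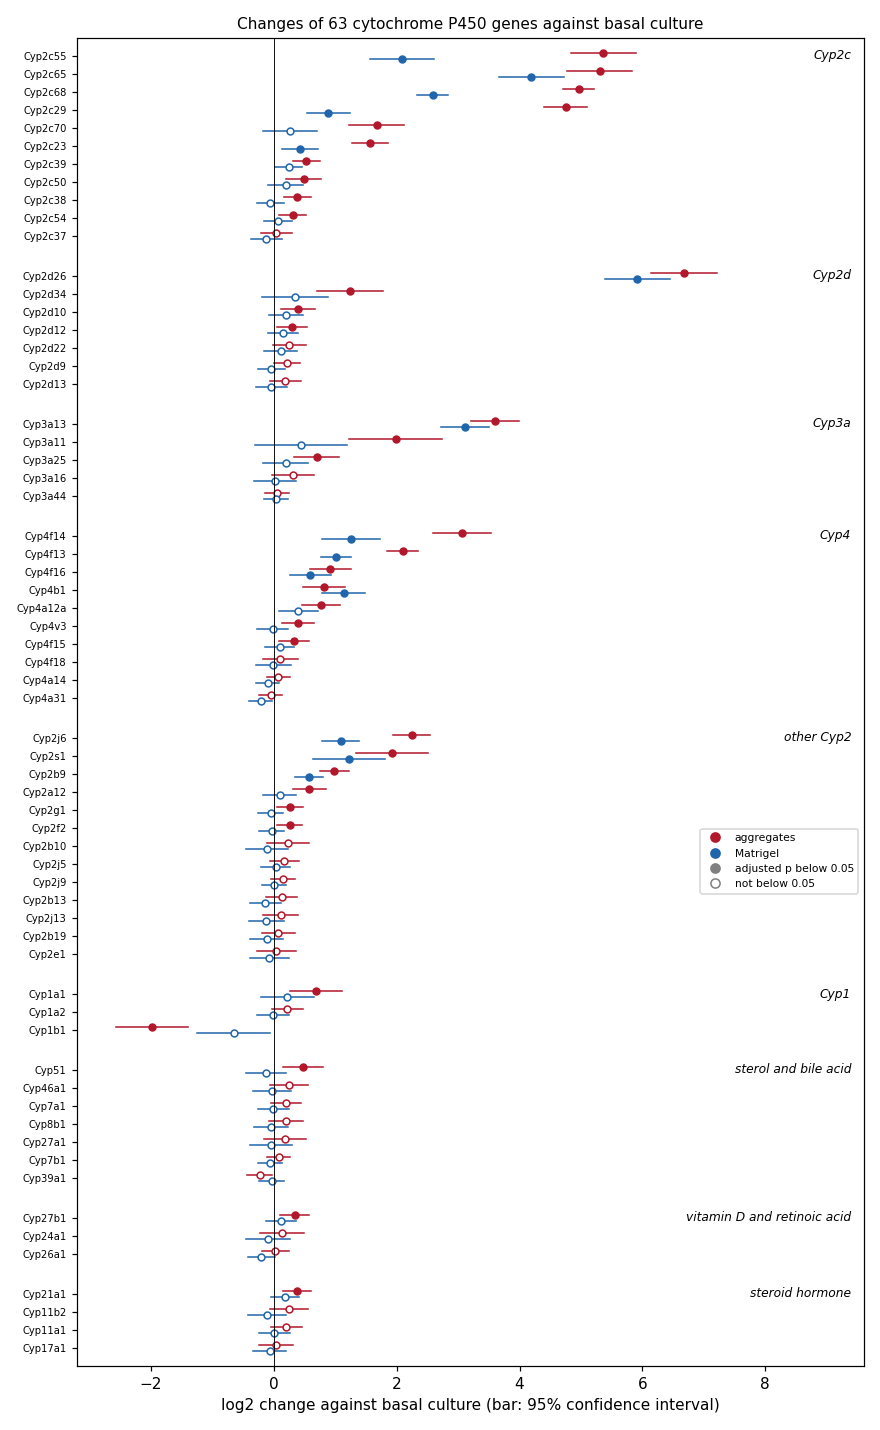
Log2 change of each of the 63 P450 genes in aggregates (red) and in Matrigel (blue) against basal culture, grouped by subfamily or role, with 95% confidence intervals from limma and filled points where the adjusted p is below 0.05. The Cyp2c genes, Cyp2d26, Cyp3a13 and Cyp4f14 reach furthest to the right, Cyp1b1 is the only filled point left of 0, and the sterol, vitamin and steroid genes lie near 0.

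Cyp2c genes had the highest median change in aggregates of the groups described here. They encode liver and gut enzymes that act on drugs and on arachidonic acid, and the measured ones lie on mouse chromosome 19. Of 11 measured members 10 were higher in aggregates and 5 in Matrigel, with 0 called lower than basal in either, and medians of 1.57 and 0.26. Cyp2c37, a liver epoxygenase, was the member without a call, at 0.04 ± 0.11 (SE, adjusted p = 0.788). Of all genes 22.9% were called higher and 23.4% lower in aggregates, and 14.1% higher and 14.3% lower in Matrigel. These shares belong beside the counts against basal culture of each subfamily and gene list below.

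Cyp2c65, known mainly from the gut, read 8.23 and 8.28 in 9A1 and 7.90 and 9.34 in 14B3 in basal culture. In aggregates it read 13.54 and 13.96 in 9A1 and 13.66 and 13.80 in 14B3, and in Matrigel 12.45 and 12.75 in 9A1 and 12.66 and 12.66 in 14B3. Every aggregate array lay above every Matrigel array, and every Matrigel array above every basal array; 1 basal array of 14B3 stood above the other 3. The change was 5.30 ± 0.24 in aggregates (SE, 39.5-fold, adjusted p = 7.37e-09) and 4.19 ± 0.24 in Matrigel (18.3-fold, adjusted p = 1.88e-07).

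Cyp2c55, an arachidonic acid hydroxylase best known from colon, read 7.22 and 7.66 in 9A1 and 7.23 and 7.69 in 14B3 in basal culture. Aggregate arrays stood at 12.38 and 12.56 in 9A1 and 12.91 and 13.41 in 14B3. The Matrigel arrays were spread more widely, at 8.97 and 8.73 in 9A1 and 10.84 and 9.58 in 14B3. The 3 cultures did not overlap, and within Matrigel both 14B3 arrays were above both 9A1 arrays. Cyp2c55 rose 41.2-fold in aggregates (5.37 ± 0.24, SE) and 4.24-fold in Matrigel (2.08 ± 0.24), with adjusted p of 6.71e-09 and 5.22e-05.

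Cyp2c68 read 7.29 and 7.35 in 9A1 and 7.09 and 7.47 in 14B3 in basal culture, 12.29 and 12.32 in 9A1 and 12.29 and 12.15 in 14B3 in aggregates, and 10.17 and 10.32 in 9A1 and 9.68 and 9.38 in 14B3 in Matrigel. Its aggregate arrays lay close together (SD 0.08, n = 4), and the cultures did not overlap. The rise was 4.96 ± 0.11 in aggregates (SE, 31.1-fold, adjusted p = 5.84e-11) and 2.59 ± 0.11 in Matrigel.

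Cyp2c29, a liver enzyme induced by the xenobiotic receptors, read 7.35 and 7.36 in 9A1 and 7.47 and 7.64 in 14B3 in basal culture and 12.73 and 12.50 in 9A1 and 11.82 and 11.80 in 14B3 in aggregates. In Matrigel it read only 8.27 and 9.03 in 9A1 and 7.80 and 8.26 in 14B3. All Matrigel arrays were above all basal arrays and below every aggregate array. Its changes were 4.75 ± 0.16 in aggregates (SE, 27-fold) and 0.88 ± 0.16 in Matrigel (1.85-fold, adjusted p = 0.00133). Within 14B3 alone the Matrigel change was 0.475 without a call (adjusted p = 0.202).

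The remaining Cyp2c rises were smaller. Cyp2c70, which turns chenodeoxycholic acid into the muricholic acids of rodent bile, went from 7.60 ± 0.35 to 9.28 ± 0.35 in aggregates (SD, n = 4 each) and was 7.86 ± 0.31 in Matrigel. Its change was 1.67 ± 0.20 in aggregates (SE, adjusted p = 2.53e-05) and 0.26 ± 0.20 in Matrigel (adjusted p = 0.433). Cyp2c23, an epoxygenase of arachidonic acid, changed by 1.57 ± 0.13 and 0.42 ± 0.13, with adjusted p of 1.3e-06 and 0.0342. Its Matrigel call was kept in 6 of 12 single omissions. Cyp2c39, Cyp2c50, Cyp2c38 and Cyp2c54 were called in aggregates with changes from 0.31 (Cyp2c54) to 0.53 (Cyp2c39). The Cyp2c54 call was kept in 6 of 12 single omissions. These 4 and Cyp2c37 did not exceed the background guide in any group.

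**Figure D2:**
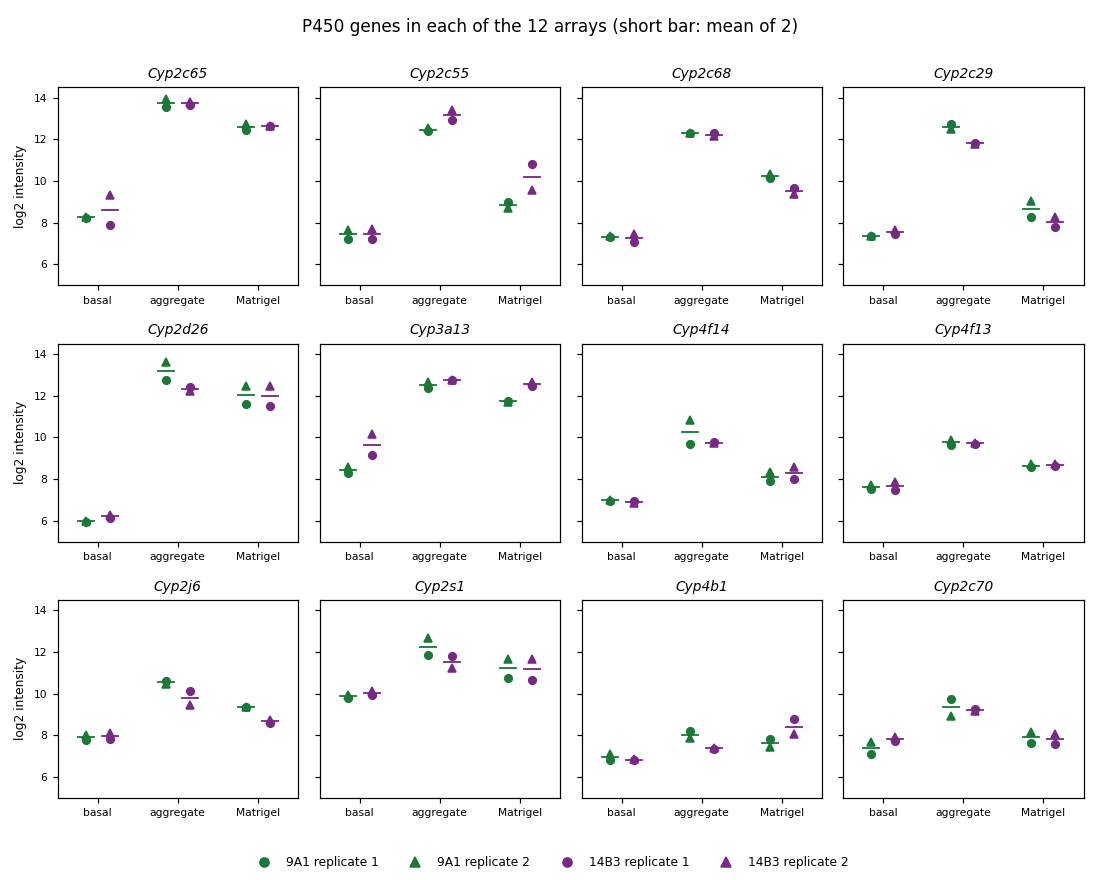
Log2 intensity of 12 P450 genes in each of the 12 arrays by culture, with the lines 9A1 (green) and 14B3 (purple), replicate 1 as circles, replicate 2 as triangles and short bars for the mean of 2 arrays. Cyp2c29 lies close to its basal level in Matrigel while Cyp2d26, Cyp2c65 and Cyp3a13 stay close to their aggregate levels; levels of different genes come from different probes and are not comparable.

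Position along the chromosome was read from the RefSeq gene table of assembly GRCm38.p6, used for order only and not for distance. It lists 15 protein-coding Cyp2c genes on chromosome 19, of which 11 were measured here. In that order Cyp2c55 and Cyp2c65 are followed by Cyp2c66 (not analysed here), Cyp2c29, Cyp2c39, Cyp2c38, Cyp2c67 (not analysed here), Cyp2c68, Cyp2c40 and Cyp2c69 (neither analysed here), Cyp2c37, Cyp2c54, Cyp2c50, Cyp2c70 and Cyp2c23. The 4 largest rises, 4.75 to 5.37, thus fell in the stretch from Cyp2c55 to Cyp2c68, where Cyp2c39 and Cyp2c38 lie between them at 0.53 and 0.38. Neighbours there are close copies of each other. Probes written for Cyp2c65 may also bind Cyp2c66 RNA, and those for Cyp2c68 may bind RNA of Cyp2c67, Cyp2c40 or Cyp2c69, so the single gene behind a reading is uncertain.

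**Figure D3:**
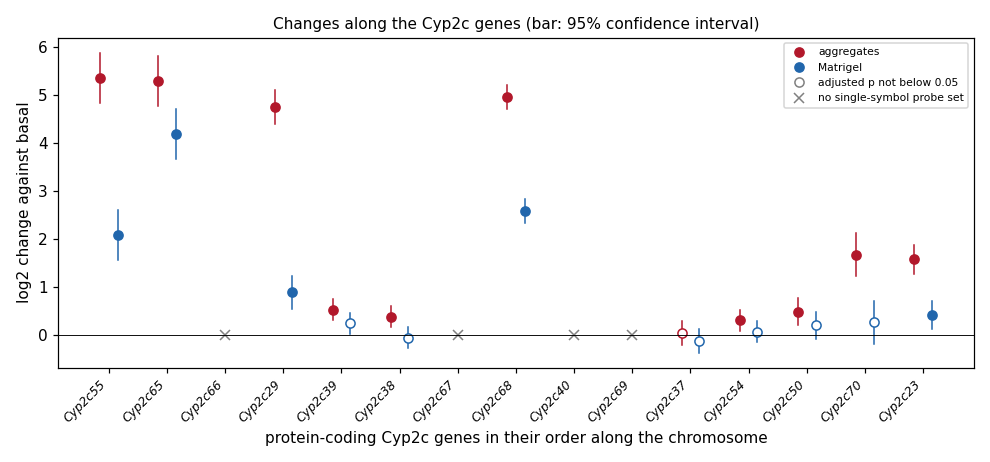
Log2 change against basal culture of the protein-coding Cyp2c genes in their order along chromosome 19, aggregates in red and Matrigel in blue, with 95% confidence intervals from limma; open points did not pass the adjusted p of 0.05 and crosses mark genes without a single-symbol probe set. Cyp2c55, Cyp2c65, Cyp2c29 and Cyp2c68 rise by 4.75 to 5.37 in aggregates, with members near 0.5 between them.

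Promoters are shown for the genes with the largest rises, to set the letters before each start beside its values. Windows from 250 bases before to 50 after the RefSeq start (GRCm38.p6) were given for 46 of the 63 members, 53 windows in all. The 5 below belong to the most raised genes, each 300 bases 5′ to 3′ on the gene's strand. Capitals mark 2 motifs. One is TATAAA, the letters of the usual box near a start site, on either strand, so that it can appear below as its reverse complement. It was marked wherever it fell in the window. Its first base lies 19 to 31 bases before the start in Cyp2c29, Cyp2c55 and Cyp2d26. In Cyp2c65 it lies 162 bases before, away from the usual place of such a box. The other is CAAAGTCCA, the core to which the liver factor Hnf4a binds, also on either strand. Cyp2c65 lies at chr19:39060756-39061055 (plus strand), Cyp2c55 at chr19:39006769-39007068 (plus), Cyp2c68 at chr19:39741052-39741351 (minus), Cyp2c29 at chr19:39286835-39287134 (plus) and Cyp2d26 at chr15:82794196-82794495 (minus).
Cyp2c65: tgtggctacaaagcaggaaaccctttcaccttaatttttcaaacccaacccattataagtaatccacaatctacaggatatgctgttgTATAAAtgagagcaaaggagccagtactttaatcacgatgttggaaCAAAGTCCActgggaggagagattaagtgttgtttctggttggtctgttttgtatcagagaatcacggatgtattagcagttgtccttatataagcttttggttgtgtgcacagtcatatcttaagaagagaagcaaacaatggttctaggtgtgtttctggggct
Cyp2c55: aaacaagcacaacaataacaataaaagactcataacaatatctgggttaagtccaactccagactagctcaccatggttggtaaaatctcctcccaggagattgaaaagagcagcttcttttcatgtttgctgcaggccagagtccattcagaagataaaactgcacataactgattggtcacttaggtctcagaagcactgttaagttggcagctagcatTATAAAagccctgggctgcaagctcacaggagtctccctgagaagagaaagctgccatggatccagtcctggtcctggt
Cyp2c68: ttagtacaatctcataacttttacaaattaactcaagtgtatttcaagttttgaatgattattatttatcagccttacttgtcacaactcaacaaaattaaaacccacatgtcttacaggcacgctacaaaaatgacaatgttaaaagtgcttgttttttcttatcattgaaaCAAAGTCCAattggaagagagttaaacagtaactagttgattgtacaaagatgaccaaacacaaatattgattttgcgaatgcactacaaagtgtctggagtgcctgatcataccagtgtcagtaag
Cyp2c29: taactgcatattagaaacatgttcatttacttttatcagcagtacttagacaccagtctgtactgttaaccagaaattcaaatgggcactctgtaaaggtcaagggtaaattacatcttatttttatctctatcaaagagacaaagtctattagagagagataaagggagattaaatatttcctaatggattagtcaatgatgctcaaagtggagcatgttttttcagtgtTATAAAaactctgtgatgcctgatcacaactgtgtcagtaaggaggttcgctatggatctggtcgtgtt
Cyp2d26: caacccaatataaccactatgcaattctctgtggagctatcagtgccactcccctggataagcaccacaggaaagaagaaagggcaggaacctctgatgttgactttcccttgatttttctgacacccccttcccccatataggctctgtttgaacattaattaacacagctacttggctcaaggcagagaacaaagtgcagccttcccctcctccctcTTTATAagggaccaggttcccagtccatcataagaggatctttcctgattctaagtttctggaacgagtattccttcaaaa

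CAAAGTCCA was found in 6 of the 53 member windows, belonging to 6 of the 46 members (13%), beside 0.475% of all 32851 promoter windows. It lay on the gene's own strand in all 6, with its first base 64 to 116 bases before the start. The 29 bases around it are given for each member, 5′ to 3′ on the gene's strand with the match in capitals, so that the flanks can be compared.
Cyp2c65: gatgttggaaCAAAGTCCActgggaggag
Cyp2c68: atcattgaaaCAAAGTCCAattggaagag
Cyp2c70: aggtcaaactCAAAGTCCAaactctgtgt
Cyp3a11: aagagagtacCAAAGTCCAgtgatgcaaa
Cyp3a16: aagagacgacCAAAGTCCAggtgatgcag
Cyp8b1: agcctctgagCAAAGTCCAagggcaggaa

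Of these 6 genes, Cyp2c65, Cyp2c68, Cyp2c70 and Cyp3a11 were called higher in aggregates, by 5.30, 4.96, 1.67 and 1.98. Cyp3a16, a Cyp3a of fetal and newborn liver, was at 0.31 and the bile acid enzyme gene Cyp8b1 at 0.19, both without a call. The flanks of Cyp3a11 and Cyp3a16 are alike, and those of Cyp2c65 and Cyp2c68 share many letters. Matches within either pair may therefore not be independent. The strongly raised Cyp2c55, Cyp2c29 and Cyp2d26 lack these 9 letters in their windows. In all, 12 motifs were searched on both strands. Percentages of members count genes, some of which have more than 1 window, while the percentages beside them count windows. The letters TATAAA were in the windows of 19 members (41.3%, beside 13.6% of all windows). Matches anywhere in the window were counted, as far as 234 bases before the start (Cyp3a11). The Foxa site TGTTTAC was found in 6 members (13%, beside 3.65%) and the Gata site AGATAA in 9 members (19.6%, beside 11.2%). The promoter box CCAAT was found in 24 members (52.2%, beside 37.4%). The Hnf1 half-site GTTAAT was found in 3 members (6.52%, beside 7.1%). The Cdx site TTTATGG was found in 2 members (4.35%, beside 2.75%) and the Ahr element TNGCGTG in 1, Cyp2c68 (2.17%, beside 5.07%). TTGCGCAA (a C/EBP site), the sterol element, the direct repeat with 1 base between its repeats that nuclear receptors bind, and the full Hnf1 site, which holds the half-site, were in 0 of the 46, beside 0.183%, 0.234%, 0.0396% and 0.0609% of all windows. A match says only that the letters are present.

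Among the 7 Cyp2d genes, relatives of the human debrisoquine hydroxylase, Cyp2d26 had the largest change of any member. It read 5.96 and 5.99 in 9A1 and 6.14 and 6.28 in 14B3 in basal culture, 12.77 and 13.64 in 9A1 and 12.44 and 12.23 in 14B3 in aggregates and 11.62 and 12.47 in 9A1 and 11.50 and 12.45 in 14B3 in Matrigel. Every basal array was far below every other array, and aggregate and Matrigel arrays overlapped. Cyp2d26 rose 102-fold in aggregates (6.68 ± 0.24, SE, adjusted p = 1.49e-09) and 60.5-fold in Matrigel (5.92 ± 0.24).

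The other Cyp2d genes had smaller changes or no call. Of the 7, 4 were called higher in aggregates (median 0.3) and only Cyp2d26 in Matrigel (median 0.14). Cyp2d34 went from 6.84 ± 0.15 to 8.08 ± 0.65 (SD, n = 4 each), a change of 1.24 ± 0.25 (SE, adjusted p = 0.00115), and was 7.19 ± 0.33 in Matrigel. Cyp2d10 and Cyp2d12 were called at 0.39 and 0.30, and these calls were kept in 8 and 4 of 12 single omissions. Cyp2d22, which is expressed in adult liver, was at 0.25 (adjusted p = 0.122, 0.0246 with the replicate number as a block). Cyp2d9, a male liver steroid hydroxylase, and Cyp2d13, which RefSeq annotates as a pseudogene, were at 0.21 and 0.18 without a call. A dimmer Cyp2d13 probe set was called at 0.27 in aggregates.

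Cyp3a enzymes handle many drugs and steroids and are induced through the receptor Nr1i2. Of 5 measured genes 3 were higher in aggregates and 1 in Matrigel. Cyp3a13, found in liver and gut, read 8.28 and 8.56 in 9A1 and 9.14 and 10.14 in 14B3 in basal culture. It read 12.39 and 12.66 in 9A1 and 12.75 and 12.74 in 14B3 in aggregates and 11.75 and 11.70 in 9A1 and 12.48 and 12.64 in 14B3 in Matrigel. Basal arrays were lowest with no overlap, the basal 14B3 arrays stood above the basal 9A1 arrays, and both other cultures overlapped. The rise was 3.60 ± 0.18 in aggregates (SE, 12.2-fold, adjusted p = 1.64e-08) and 3.11 ± 0.18 in Matrigel (8.65-fold).

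Cyp3a11, the main Cyp3a of adult mouse liver, read 6.75 and 7.06 in 9A1 and 7.07 and 7.16 in 14B3 in basal culture. In aggregates it read 11.25 and 9.25 in 9A1 and 7.76 and 7.70 in 14B3, and in Matrigel 7.50 and 8.54 in 9A1 and 6.85 and 6.91 in 14B3. Both 9A1 aggregate arrays stood above all other arrays, and they differed from each other by 2 log2 units, while the 14B3 aggregate arrays were only slightly above basal. The average change was 1.98 ± 0.35 in aggregates (SE, adjusted p = 0.000456), made of 3.35 in 9A1 and 0.62 in 14B3, the latter without a call (adjusted p = 0.404). In Matrigel it was 0.44 ± 0.35 (adjusted p = 0.434). Cyp3a25 was called at 0.70 in aggregates, and Cyp3a16 and Cyp3a44 were at 0.31 and 0.05 without a call. Those 3 genes lay below the background guide in every group.

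Cyp4 enzymes hydroxylate the far end of fatty acids and eicosanoids. Of 10 measured genes 7 were higher in aggregates and 4 in Matrigel, with 0 called lower than basal. The largest rises were in Cyp4f genes. Of the 3 measured Cyp4a genes, a branch known as targets of the fatty acid receptor Ppara, 1 was called. Cyp4f14, a leukotriene B4 hydroxylase, read 6.96 and 6.99 in 9A1 and 6.96 and 6.87 in 14B3 in basal culture, 9.69 and 10.84 in 9A1 and 9.76 and 9.72 in 14B3 in aggregates and 7.89 and 8.33 in 9A1 and 8.01 and 8.57 in 14B3 in Matrigel. The cultures did not overlap, and 1 aggregate array of 9A1 stood above the other 3. Its change was 3.06 ± 0.22 in aggregates (SE, 8.32-fold, adjusted p = 2.93e-07) and 1.25 ± 0.22 in Matrigel (adjusted p = 0.00103).

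Cyp4f13, a close relative, read 7.51 and 7.72 in 9A1 and 7.48 and 7.87 in 14B3 in basal culture, 9.64 and 9.89 in 9A1 and 9.70 and 9.74 in 14B3 in aggregates and 8.58 and 8.70 in 9A1 and 8.62 and 8.73 in 14B3 in Matrigel. Here too the cultures were fully apart, with changes of 2.10 ± 0.11 and 1.01 ± 0.11 (SE, adjusted p of 3.11e-08 and 4.23e-05). Cyp4f16 changed by 0.92 ± 0.15 in aggregates and 0.59 ± 0.15 in Matrigel. A dimmer Cyp4f16 probe set gave 0.61 in aggregates and 0.16 in Matrigel, the latter without a call. Cyp4b1, known from lung, went from 6.89 ± 0.14 to 7.71 ± 0.40 in aggregates and 8.02 ± 0.56 in Matrigel (SD, n = 4 each). Its changes were 0.82 ± 0.16 and 1.13 ± 0.16 (SE, adjusted p of 0.00103 and 0.000233). Cyp4a12a, which makes 20-HETE from arachidonic acid, was called in aggregates at 0.77 (adjusted p = 0.000822), Cyp4v3 at 0.39 and Cyp4f15 at 0.33. Of the 12 single omissions the Cyp4v3 call was kept in 10, the Cyp4f15 call in 6, and the Matrigel call of Cyp4f16 in 9. A dimmer Cyp4v3 probe set gave 0.24 in aggregates without a call. Cyp4a14 (0.07), Cyp4a31 (-0.05) and Cyp4f18 (0.11) were uncalled.

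Of 13 other Ppara target genes measured, 10 were higher and 1 lower in aggregates, and the same numbers in Matrigel, with medians of 1.43 and 0.83. Fabp1, a fatty acid carrier, was higher by 5.86 and the peroxisomal enzyme gene Ehhadh by 2.70, while Vnn1 fell by 1.14. Ppara itself was at 0.99 (adjusted p = 9.32e-05). Beside these, the Cyp4a14 interval for the aggregate change was -0.12 to 0.26 (95% confidence), around readings of 6.04 ± 0.07 in basal culture and 6.11 ± 0.11 in aggregates, below the background guide.

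In the rest of family Cyp2, 6 of 13 genes were higher in aggregates and 3 in Matrigel. Cyp2j6, an epoxygenase expressed in small intestine, read 7.78 and 8.03 in 9A1 and 7.81 and 8.09 in 14B3 in basal culture, 10.60 and 10.48 in 9A1 and 10.13 and 9.48 in 14B3 in aggregates and 9.37 and 9.35 in 9A1 and 8.60 and 8.74 in 14B3 in Matrigel. The cultures did not overlap, and in aggregates and Matrigel both 14B3 arrays lay below both 9A1 arrays. Cyp2j6 changed by 2.24 ± 0.14 in aggregates (SE, 4.73-fold, adjusted p = 9.95e-08) and 1.09 ± 0.14 in Matrigel (2.12-fold). Cyp2s1, an enzyme of surface epithelia outside the liver, was above the background guide in all 12 arrays, at 9.81 and 9.96 in 9A1 and 9.94 and 10.15 in 14B3 in basal culture. It read 11.83 and 12.68 in 9A1 and 11.80 and 11.25 in 14B3 in aggregates and 10.75 and 11.68 in 9A1 and 10.64 and 11.68 in 14B3 in Matrigel, both above every basal array and overlapping each other. Its changes were 1.92 ± 0.27 and 1.22 ± 0.27 (SE, adjusted p of 8.11e-05 and 0.00481).

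Cyp2b9, a female-biased liver enzyme, changed by 0.99 ± 0.11 in aggregates and 0.57 ± 0.11 in Matrigel (SE, adjusted p of 9.04e-06 and 0.00165). Within 9A1 alone its Matrigel change was 0.249 without a call (adjusted p = 0.343), while in 14B3 the mean went from 6.68 to 7.57. The means of Cyp2b9 were below the background guide in every group. Cyp2a12, which hydroxylates bile acids, was called in aggregates at 0.57 and uncalled in Matrigel at 0.10; its 9A1 aggregate arrays, 9.25 and 9.06, were above those of 14B3, 8.56 and 8.51. Cyp2g1 (olfactory tissue) and Cyp2f2 (airway) were called in aggregates at 0.26 and 0.25, from readings below the guide, and each call was kept in 4 of 12 single omissions. Cyp2e1, the ethanol oxidising enzyme of adult hepatocytes, was at 0.04 in aggregates (95% confidence interval -0.28 to 0.35) and -0.08 in Matrigel (-0.40 to 0.24). The readings of Cyp2e1, 7.57 ± 0.09 in basal culture, 7.60 ± 0.19 in aggregates and 7.49 ± 0.31 in Matrigel (SD, n = 4 each), were all below the guide. Cyp2b10, the standard target of the receptor Nr1i3, was at 0.23 (adjusted p = 0.262) on its brightest probe set. Its other 2 probe sets, of a kind whose probes can match several transcripts, were called at 1.02 and 0.89, so the probe sets of this gene disagree on the call. Cyp2b13, Cyp2b19, Cyp2j5, Cyp2j9 and Cyp2j13 were uncalled, at 0.07 (Cyp2b19) to 0.17 (Cyp2j5).

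Cyp1 genes, the classical targets of the aryl hydrocarbon receptor Ahr, did not move together. Cyp1b1, which oxidises polycyclic hydrocarbons and estradiol outside the liver, read 11.12 and 10.53 in 9A1 and 9.96 and 9.58 in 14B3 in basal culture. In aggregates it read 8.72 and 7.82 in 9A1 and 8.10 and 8.59 in 14B3, and in Matrigel 10.99 and 10.19 in 9A1 and 9.14 and 8.23 in 14B3. All aggregate arrays lay below all basal arrays, and the Matrigel arrays covered both ranges, with 9A1 near its basal level. Cyp1b1 was 3.97-fold lower in aggregates (-1.99 ± 0.27, SE, adjusted p = 6e-05), the only 1 of the 63 called lower than basal here (Cyp39a1 was called lower too under 5 alternatives: the replicate block, quantile normalization, the mean of probe sets, array weights and a trended variance). Its Matrigel change was -0.66 ± 0.27 (adjusted p = 0.0937, but 0.016 with the replicate number as a block). Without single arrays that value passed as well, at 0.0491 without Matrigel_9A1 replicate 1 and 0.0324 without Matrigel_14B3 replicate 1. Both other Cyp1b1 probe sets were dimmer; 1 gave -1.88 in aggregates, and the other 0.15 without a call.

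Cyp1a1, the most inducible of these genes, went from 6.99 ± 0.19 to 7.68 ± 0.58 in aggregates (SD, n = 4 each), a change of 0.69 ± 0.20 (SE, adjusted p = 0.0122), with 1 aggregate array of 14B3 at 8.52 and the other 3 at 7.19 to 7.50. Its change in Matrigel was 0.22 without a call. The adult liver gene Cyp1a2 was at 0.22 in aggregates (95% confidence interval -0.04 to 0.48) and -0.02 in Matrigel. Both Cyp1a genes read below the background guide in every group. Ahr itself fell by 0.87 in aggregates (adjusted p = 8.26e-05) and was at 0.29 in Matrigel (adjusted p = 0.102). Of 5 other Ahr-responsive genes measured, 3 were higher and 1 lower in aggregates. Aldh3a1 fell by 4.11, and Tiparp, the gene of an enzyme that dampens Ahr, was higher by 0.81.

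Sterol and bile acid P450 genes were mostly uncalled. Cyp51, the lanosterol demethylase of cholesterol synthesis, was above the guide in all 12 arrays. It read 10.68 and 10.61 in 9A1 and 11.56 and 11.40 in 14B3 in basal culture, 11 and 11.75 in 9A1 and 11.69 and 11.70 in 14B3 in aggregates and 11.02 and 11 in 9A1 and 11.06 and 10.68 in 14B3 in Matrigel. Its basal arrays split by line, with 14B3 higher, and overlapped the aggregate arrays. The change was 0.47 ± 0.15 in aggregates (SE, adjusted p = 0.0215), kept in 8 of 12 single omissions, and -0.13 ± 0.15 in Matrigel. A dimmer Cyp51 probe set gave 0.56 in aggregates and another 0.02. Of 16 other sterol synthesis genes 10 were higher and 0 lower in aggregates, with Tm7sf2 at 2.29 and Dhcr7 at 1.41; in Matrigel 4 were higher and 1 lower.

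On their brightest probe sets the bile acid genes gave no call in either culture. Cyp7a1, the rate-limiting enzyme of the classical route, was at 0.20 in aggregates (95% confidence interval -0.05 to 0.45) and -0.01 in Matrigel; a dimmer Cyp7a1 probe set was called at 0.32 in aggregates. Cyp8b1, which sets the share of cholic acid, was at 0.19 (-0.08 to 0.47) and -0.05. Cyp27a1, the sterol 27-hydroxylase of the alternative route, was at 0.18 and -0.05, and Cyp7b1, which follows it, at 0.08 and -0.07. A dimmer Cyp7b1 probe set was called at 0.25 in aggregates. Cyp39a1, an oxysterol hydroxylase, was at -0.23 in aggregates (adjusted p = 0.0634, but 0.0197 to 0.0471 under the 5 alternatives named with Cyp1b1, 0.0326 with the replicate number as a block). Cyp46a1, the cholesterol 24-hydroxylase of brain, was at 0.24. All 6 of these genes read below the background guide in every group, where readings may be partly background. Nr1h4, the bile acid receptor that represses Cyp7a1 through Nr0b2, was higher in aggregates by 1.80.

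For vitamin D and retinoic acid, Cyp27b1, which activates vitamin D, was called in aggregates at 0.34 ± 0.11 (SE, adjusted p = 0.0245), a call kept in 7 of 12 single omissions. Cyp24a1, which breaks vitamin D down, was at 0.13 and the retinoic acid hydroxylase gene Cyp26a1 at 0.03, both uncalled. Cyp26a1 is a standard target of retinoic acid receptors. Of 9 other retinoid genes measured 2 were higher in aggregates, Aldh1a1 (6.26, an enzyme that makes retinoic acid) and Dhrs3 (1.69), and Rdh10 was lower. Of the steroid hormone genes, Cyp21a1, the 21-hydroxylase of the adrenal cortex, was called at 0.37 ± 0.11 (SE, adjusted p = 0.0115), kept in 10 of 12. A dimmer Cyp21a1 probe set gave 0.22 without a call. Cyp11a1 (0.20), Cyp11b2 (0.25) and Cyp17a1 (0.04) were uncalled. Summed intensities of 4 adrenal and gonad markers lay between 9.81 and 10.03 in all 12 arrays. Cyp4a10, Cyp19a1, Cyp26b1, Cyp2r1 and Cyp20a1 had no single-symbol probe set and were not analysed here.

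Of 14 measured genes for electron donors and heme supply 9 were higher in aggregates and 0 lower, and 4 higher and 1 lower in Matrigel. Cyb5b, a mitochondrial cytochrome b5, was higher by 1.35 in aggregates, the heme chaperone gene Pgrmc1 by 1.08 and Cyb5a, the microsomal cytochrome b5, by 1.02. Alas1, the first enzyme of heme synthesis, was higher by 0.75 in aggregates (adjusted p = 0.000114) and was at 0.22 in Matrigel (adjusted p = 0.173). Fdx1, the mitochondrial ferredoxin, was at 0.09 in aggregates (adjusted p = 0.538), and Cpox, Ppox, Hmox1 and Hmox2 were not called there either. P450 reductase (Por) was not analysed here. Among 22 genes of known P450 regulators 14 were higher and 4 lower in aggregates, and 9 higher and 1 lower in Matrigel. Nr1i2, the receptor behind Cyp3a induction, was higher by 2.23 in aggregates and 1.14 in Matrigel, and Nr1i3, its relative behind Cyp2b induction, by 1.24 and 0.64. Hnf4a was higher by 0.94 and 0.55. Foxa1, a factor of early liver development, fell by 1.78 in aggregates and was at -0.01 in Matrigel.

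Markers of gut absorptive cells moved in the same arrays as the Cyp2c, Cyp2d26, Cyp3a13, Cyp2j6 and Cyp4f rises. All 6 measured enterocyte genes were called higher in aggregates and 4 of them in Matrigel. The fatty acid carrier gene Fabp2 was higher by 7.13 in aggregates and 6.23 in Matrigel, and the peptidase gene Anpep by 4.15 and 1.27. Hepatocyte markers moved too, with Alb higher by 4.38 and 4.46. The part of either cell type's genes in the P450 changes was not tested. Of 6 haematopoietic markers 1 was higher in aggregates, of 6 endothelial markers 1 was lower, and of 7 stellate cell markers 1 was higher. In Matrigel 3 stellate markers were higher, with a summed level of 10.17 to 11.88 beside 10.12 to 10.27 in basal arrays.

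The direct comparison of Matrigel with aggregates asks how both differentiating cultures differ, and it cannot be told apart from days in culture. P450 genes were more often lower than higher in Matrigel: 20 of the 63 were called lower and 1 higher, 33.3% of the members against 26.7% of all genes. Over all genes 12.7% were called lower and 13.9% higher. The median P450 difference was -0.268, beside -0.103 over all genes and -0.18 over the 40 background guide genes. By at least 1 log2 unit, 10 members were lower and 1 higher, 17.5% of them, beside 4.62% of all genes. Over all 63 members, called or not, Matrigel arrays lay wholly below aggregate arrays for 15 and wholly above for 0, against 13.5% and 11.8% of all genes. Of the 20 called lower, 13 did not overlap. With the replicate number as a block, 30 members were called in place of 21. The share of all genes under that fit is not given here, so the gain may not be particular to P450 genes. Of the 21 called members 8 were at or below the background guide in every group. The count is sensitive to single arrays: it was 31 without Matrigel_9A1 replicate 2 and 14 without Matrigel_9A1 replicate 1 or Matrigel_14B3 replicate 1, the array labelled 5 days, and 13 of the 21 calls were kept in all 12 omissions.

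By subfamily, Matrigel was below aggregates for 7 of 11 Cyp2c genes, 2 of 7 Cyp2d, 2 of 5 Cyp3a, 3 of 10 Cyp4 and 5 of 13 other Cyp2 genes. Cyp2c29 differed most, 14.6-fold lower (-3.87 ± 0.16, SE, adjusted p = 1.96e-07), then Cyp2c55, 9.72-fold lower (-3.28 ± 0.24), and Cyp2c68, 5.19-fold lower (-2.38 ± 0.11). Differences of 1 to 2 log2 units followed for Cyp4f14 (-1.80), Cyp3a11 (-1.54), Cyp2c70 (-1.41), Cyp2j6 (-1.16), Cyp2c23 (-1.15), Cyp2c65 (-1.11) and Cyp4f13 (-1.08). Within 14B3 the Cyp3a11 difference was -0.849 without a call (adjusted p = 0.304). Within 9A1 alone 16 members were lower and 2 higher (15.6% of all genes called), and within 14B3 alone 9 and 1 (13%).

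Smaller Matrigel deficits were called for Cyp2d34 (-0.89), Cyp2d26 (-0.76), Cyp51 (-0.60), Cyp3a25 (-0.50), Cyp2a12 (-0.48), Cyp2c38 (-0.44), Cyp2b9 (-0.42), Cyp4v3 (-0.41), Cyp2g1 (-0.32) and Cyp2f2 (-0.29). Several of these calls depend on single arrays. Of the 12 single omissions, the call was kept in 1 for Cyp2f2, 2 for Cyp3a25, 3 for Cyp2d26 (adjusted p = 0.0392 with all arrays), 6 for Cyp2g1, 8 for Cyp2d34 and Cyp4v3, 10 for Cyp2a12 and 11 for Cyp2b9. Cyp51 and Cyp2c38 kept it in all 12. Cyp3a13 (-0.49, adjusted p = 0.0621) and Cyp2s1 (-0.70, adjusted p = 0.0747) missed the threshold, and both passed with the replicate number as a block, at 0.0254 and 0.0281. Cyp4b1 was at 0.32 (95% confidence interval -0.03 to 0.66) without a call, an average of -0.397 in 9A1 (adjusted p = 0.264) and 1.03 in 14B3 (adjusted p = 0.011). It was called at 0.495 (adjusted p = 0.0237) without Matrigel_14B3 replicate 2. Cyp1b1 was the member called higher, 2.52-fold (1.33 ± 0.27, SE, adjusted p = 0.00327); within 14B3 alone it was at 0.341 (adjusted p = 0.603). Ahr was higher in Matrigel than in aggregates by 1.16. Electron donor and heme genes had 7 of 14 lower and 0 higher, with Alas1 at -0.53, and 5 of 6 enterocyte genes were lower, as were 3 of 6 hepatocyte genes.

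The lines 14B3 and 9A1 were compared over all cultures to ask whether independently isolated cells behave alike. Few P450 genes differed: 4 were called lower in 14B3 and 1 higher, 7.94% of the members, beside 6.01% of all genes (3.45% lower and 2.57% higher). Taken over the 3 cultures, the arrays of the lines overlapped for all 63 members; they did not overlap for 0.928% of all genes. Within single cultures 1 member was called in basal culture (1.9% of all genes), 1 in aggregates (1.53%) and 5 in Matrigel (3.77%). Only Cyp39a1 and Cyp3a13 kept their call in all 12 single omissions, and without basal_9A1 replicate 1 these were the 2 left. The count was 3 without basal_9A1 replicate 2, basal_14B3 replicate 1 or 2, aggregate_9A1 replicate 1, aggregate_14B3 replicate 2, Matrigel_9A1 replicate 2, or Matrigel_14B3 replicate 1 or 2.

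Cyp3a13 was higher in 14B3 by 0.76 ± 0.15 (SE, adjusted p = 0.00886), and by 1.22 in basal culture (adjusted p = 0.0336), 0.22 in aggregates and 0.84 in Matrigel. It was thus largest in the basal arrays, 9.14 and 10.14 in 14B3 against 8.28 and 8.56 in 9A1. Cyp3a11 differed the other way, by -1.15 ± 0.28 (adjusted p = 0.0334), with 0.21 in basal culture, -2.52 in aggregates (adjusted p = 0.0254) and -1.14 in Matrigel. Its call ended when any of 9 of the 12 arrays was left out.

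Cyp1b1 was lower in 14B3 by a difference of -0.96 ± 0.22 (adjusted p = 0.0232), most in Matrigel (-1.91, adjusted p = 0.0151) and at 0.08 in aggregates. Cyp39a1 read 5.91 and 5.82 in 9A1 and 5.36 and 5.56 in 14B3 in basal culture, 5.55 and 5.52 in 9A1 and 5.32 and 5.34 in 14B3 in aggregates and 6.05 and 5.93 in 9A1 and 5.16 and 5.36 in 14B3 in Matrigel, lower in both 14B3 arrays of every culture. Its difference was -0.45 ± 0.08 (adjusted p = 0.00446) at readings below the background guide. Cyp2j6 differed by -0.46 ± 0.11 (adjusted p = 0.0342), with 0.04 in basal culture. Within Matrigel alone Cyp2c55 was higher in 14B3 by 1.36 (adjusted p = 0.0485); over all cultures it was at 0.69 (adjusted p = 0.062, but 0.00355 without Matrigel_14B3 replicate 2).

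**Figure D4:**
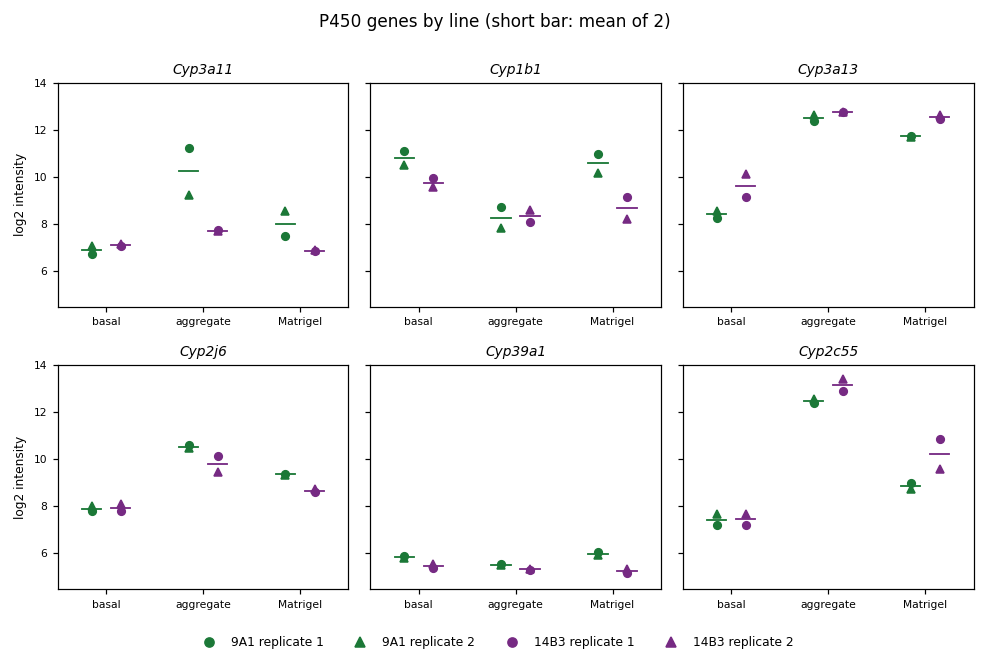
Log2 intensity of 6 P450 genes with line differences, in each of the 12 arrays by culture, 9A1 in green and 14B3 in purple, replicate 1 as circles, replicate 2 as triangles, and short bars for the mean of 2 arrays. Cyp3a11 is higher in the 9A1 aggregates than in any other array, Cyp3a13 is higher in 14B3 in basal culture, and Cyp1b1 is lower in 14B3 in basal culture and Matrigel.

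Whether the lines respond differently was tested directly by the interaction of line and culture. No P450 gene was called: 0 of 63 for the aggregate response, beside 0.468% of all genes, and 0 of 63 for the Matrigel response, beside 0.686%. At an unadjusted p below 0.05 limma gave 9 and 8 members, and no other tool was run. The share of all genes at that unadjusted threshold was not counted, so these counts have no background to be set against. The aggregate response of Cyp3a11 was smaller in 14B3 by a difference of -2.73 ± 0.69 (SE, adjusted p = 0.168). Without aggregate_9A1 replicate 2 the difference was -3.74 (adjusted p = 0.00207); the 9A1 aggregates are then 1 array, assumed to vary like the other groups. That also applies to the omissions named next for Cyp3a13 and Cyp2c55. For Cyp3a13 the difference was -0.995 (adjusted p = 0.495, but 0.0344 without basal_14B3 replicate 1). The Matrigel response of Cyp2c55 was larger in 14B3 by 1.35 ± 0.48 (adjusted p = 0.442, but 0.0435 without Matrigel_14B3 replicate 2). Within 9A1 alone 28 members were called higher and 1 lower in aggregates (36.9% of all genes called), and within 14B3 alone 17 and 1 (33.2%); whether the count itself differs was not tested.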

How the data were processed

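RNA from 12 BMEL cultures, 5 ug each, was hybridised to Affymetrix mouse 430A arrays. The deposited values are RMA signal intensity made by the authors, with RMA in R 2.3.1 per the submitters' processing notes; they are linear, and log2 was taken here. Of 22690 probe sets, 20380 had 1 symbol in GEO's platform annotation, which can be old, 691 several, 1555 none, and 64 were controls. Symbols were updated by gene ID, with 12369 of 12393 matched to RefSeq's gene table. Each gene was read from its brightest probe set, and no low values were filtered out.

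One limma fit (limma 3.58.1, R 4.3.3) of all 12393 genes held the 6 groups of line and culture, leaving 6 residual degrees of freedom; the residual SD had a median of 0.17. Culture comparisons averaged both lines. Tests were two-sided with Benjamini-Hochberg adjustment at 0.05, and the script was tested on simulated data. Figures used matplotlib 3.10.9 in Python 3.11.15.

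The main fit holds no pairing. Replicate numbers were judged to pair samples, and a fit with them as a block was run as an alternative, since replicate 2 minus replicate 1 differences correlated in all 15 pairs of groups (r = 0.101 to 0.644 across genes, which are not independent). The rule for named genes took the called members with the largest changes, up to 15 a comparison, and a set list of P450 genes; from each list of other genes it took at most the 4 largest calls in aggregates each way, with a few set genes. Values of uncalled members are given to account for every member, and Matrigel values of context genes are given beside theirs in aggregates. The members and lists were chosen with earlier results of these data known. Alternatives were a replicate block, each array left out, each line alone, a filter on dim genes, median centring, quantile normalization, the mean of probe sets, array weights and a trended variance. Probe sets naming several genes were left out.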

Additional observations from a re-analysis of the deposited data

Results flagged for a closer look

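In 9 of 189 groups of 4 arrays (63 genes in 3 cultures), 1 array stood apart from the other 3 by Dixon's test at 95%, which chance does in about 1 in 20 groups. Cyp4f14 read 10.84 in aggregate_9A1 replicate 2, above 9.69 to 9.76 in the other aggregates. Cyp51 read 11 in aggregate_9A1 replicate 1, below 11.69 to 11.75, and 10.68 in Matrigel_14B3 replicate 2, below 11 to 11.05. Cyp3a25 read 5.86 in Matrigel_9A1 replicate 2, above 4.94 to 5.05. Cyp27b1 read 6.79 in Matrigel_14B3 replicate 2, above 6.36 to 6.38, and 6.23 in basal_9A1 replicate 1, below 6.39 to 6.41. In basal_9A1 replicate 1, Cyp2c23 was also low at 5.83 (others 5.99 to 6.01), as was Cyp26a1 at 8.31 (others 8.43 to 8.44). Cyp2g1 read 6.2 in Matrigel_9A1 replicate 1, below 6.5 to 6.54.

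A probe set annotated to both Cyp4f37 and Cyp4f16, and so left out of the tests, had a mean log2 intensity of 10.11 in aggregates and 9.48 in Matrigel, above the basal range of 8.32 to 8.69.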

How the results depend on the processing

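Over single-gene values, 7009 kept their side of the threshold, 189 lost and 74 gained a call, and 0 reversed. A reversal was a change of direction with a call under either setting. Changes of direction between uncalled values were not counted, and such values are among the 7009. Leaving out 1 array at a time gave 26 to 35 called P450 genes in aggregates against basal culture (35 with all arrays), 12 to 17 in Matrigel (14), 14 to 31 in Matrigel against aggregates (21), and 2 to 5 between lines (5). It gave 0 to 1 for the aggregate and for the Matrigel response by line (0 each). Among genes at or above the median level, which hold 15 of the members, 14 were called in aggregates, 11 in Matrigel against aggregates and 3 between lines; fewer members were tested there. In 14B3 alone, with fewer arrays, 18 were called in aggregates and 10 in Matrigel against aggregates. With the replicate number as a block, counts were 37, 15, 30 and 5, and 0 for each response by line. Shares of all genes under the omissions and the other alternatives are not given here. Shifts in these counts may therefore not be particular to P450 genes. The block lost 0 calls and gained 12: those given in the report and, in Matrigel against aggregates, Cyp11b2, Cyp26a1, Cyp2b10, Cyp2b13, Cyp2c39, Cyp2d9 and Cyp46a1. Median centring moved no array by more than 0.036. With 1 array left out, the group's lone array is assumed to vary like the other groups. Readings of 45 members were at or below the background guide in every group, and close copies may share probes.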
